A study of Mus musculus with 8 samples.

Results

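The genes described here are 10 that slow or end inflammatory signalling: the dual-specificity phosphatases Dusp1, Dusp2, Dusp4, Dusp5, Dusp6 and Dusp16, the mRNA-decay proteins Zfp36, Zfp36l1 and Zc3h12a, and Socs1, an inhibitor of cytokine receptors. They were chosen by name, as a list of inhibitors with known roles, but with earlier results of these data known. They are 10 of the 18603 genes tested. They were read by 16 of the 56605 probes of the array, and all 10 genes and all 16 probes passed the filter on dim probes. Expression was measured in adherent peritoneal cells, prepared as macrophages, with 8 one-colour Agilent arrays, 4 from Card9-/- mice and 4 from wild-type (wt) mice. The markers given below do not show that the samples were mostly macrophages. Card9 is the adaptor that carries signals of C-type lectin receptors, which bind yeast cell walls, to NF-kB. Every mouse of both genotypes was injected with 1 ml of 3% thioglycolate, the peritoneal cells were taken 4 days later, and cells that adhered within 3 h were kept. Mice of both genotypes were also given zymosan, a yeast cell wall preparation, at 500 mg/kg for 4 h, so the arrays compare genotypes after zymosan and hold no untreated cells. Cells were collected from 4 or 5 mice in each group, and whether the RNA of an array came from 1 mouse or a pool is not stated, so p-values measure only the spread between these samples. Strain, sex, age and the way Card9 was inactivated are not given in the sources used here.

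Inflammatory genes are switched on largely through MAP kinases, and dual-specificity phosphatases end that signal by removing phosphate from both the threonine and the tyrosine of the activated kinase. Zfp36, also called tristetraprolin, and its relative Zfp36l1 bind AU-rich elements in mRNAs such as that of tumour necrosis factor and bring in enzymes that shorten the poly(A) tail, while Zc3h12a, also called Regnase-1, cuts mRNAs such as that of interleukin 6. Socs1 binds JAK kinases and stops signalling by interferon gamma and other cytokines, and most of these genes are themselves induced by the signals they end.

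AU-rich elements are built around the pentamer ATTTA, so the probes of the brake genes were searched for it. It was present in 5 of the 16 probes, against 8.08% of all 56605 probes. Only this pentamer was searched for, and whether a stretch is an element that Zfp36 or Zfp36l1 binds was not tested. Each line gives 30 bases of a probe, 5′ to 3′ in the sense of the mRNA, with ATTTA in capitals.
Dusp1: acagttgtatgtttgtttATTTAtgatctg
Dusp2: agttatttgtgttcaactgacATTTAacgc
Zfp36: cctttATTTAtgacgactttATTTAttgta
Zfp36l1: tttctttgtgtgaattcATTTAaaagaaaa
Zc3h12a: aggcgagATTTAaatattttaaatgaaaaa
On mm9, the build of the probe coordinates in the files, these stretches lie at chr17:26642624-26642653 (minus strand) for Dusp1, chr2:127163960-127163989 (plus strand) for Dusp2 and chr7:29161977-29162006 (minus strand) for Zfp36. The Zfp36l1 stretch lies at chr12:81208803-81208832 and that of Zc3h12a at chr4:124795900-124795929, both on the minus strand. The probe of Zfp36 held 3 copies of ATTTA, 2 of them in the stretch shown, and each of the other 4 probes held 1. A match describes the letters of the probe and is not evidence of binding. The Zc3h12a match is on a probe that does not stand for the gene, and the probe that does held no ATTTA. The probes that stand for the other 5 genes also held none. They lie at chr8:35884806-35884865 (Dusp4), chr19:53616779-53616838 (Dusp5) and chr10:98729985-98730044 (Dusp6) on the plus strand, and at chr6:134665783-134665842 (Dusp16) and chr16:10783951-10784010 (Socs1) on the minus strand. Exon and UTR annotation on this build was not used here.

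Promoters were taken from RefSeq (build GRCm38.p6), which gave 9 of the 10 genes, all but Dusp4, and the 250 bases before the start were searched on both strands. The cyclic AMP response element TGACGTCA was present in 1 of 9 promoters, that of Dusp1, against 1.55% of 32851 promoters, and its core TGACG, which the full element contains, in 3 of 9 against 17.8%. The CArG box, the element of serum response factor, was present in the promoters of Dusp5 and Zfp36, against 1.47% of all promoters. Each of TGANTCA, the AP-1 site, and TTCNNNGAA, the site of STAT factors, was present in 1 of 9, against 6.75% and 7.02%. The NF-kB site was present in 0 of 9, against 3.90%. The lines below show the promoter stretches of Dusp1, with TGACG and TGACGTCA in capitals, and of Dusp5, with 2 adjoining CArG boxes in capitals, since they are the densest matches among the brake genes.
Dusp1: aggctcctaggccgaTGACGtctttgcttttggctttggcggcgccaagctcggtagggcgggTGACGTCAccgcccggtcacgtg
Dusp5: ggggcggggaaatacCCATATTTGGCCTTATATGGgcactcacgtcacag
The Dusp1 stretch runs over 206 to 121 bases before the start at chr17:26508593-26508678 on the minus strand, and the Dusp5 stretch over 97 to 48 bases before it at chr19:53529048-53529097 on the plus strand. These matches are descriptions of sequence, and factor binding was not measured here.

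All values below are levels, that is, the log2 of the processed signal minus the 75th percentile of its array, where 0 stands for that percentile and 1 unit for a doubling. Of the 59305 spots per array, 47.8% to 56.5% were well above background and 0 were saturated, and the number of arrays limits the precision. The 2 Card9 probes cleared background on 0 Card9-/- arrays, and on 3 and 2 wt arrays. The signal of the brighter Card9 probe was 3.60 to 11.9 on the Card9-/- arrays, against 4.75, 38.2, 1058 and 561 on wt replicates 1 to 4. The array labelled wt replicate 1 therefore did not show the gene its label implies. The level of the macrophage marker Adgre1 was 0.67, 0.35, 7.72 and 5.92 on wt replicates 1 to 4. Whether the low Card9 signals go with the label or with the cells in the sample was not tested. Arrays are called by their labels throughout, and the difference of each brake gene is also given without wt replicate 1. The arrays of wt replicates 1 and 2 were closest to each other of all pairs (correlation 0.985 over genes). At the probes that detected them, the Y-linked Eif2s3y, Ddx3y and Uty stood clear of background on each of the 4 Card9-/- arrays and on no wt array, and Xist on no Card9-/- array and each of the 4 wt arrays, so genotype and sex cannot be told apart. Card9-/- replicates 1 and 3 were on 1 slide, Card9-/- replicate 2 on another, and Card9-/- replicate 4 shared a slide and scan with all 4 wt arrays.

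None of the 10 brake genes differed between Card9-/- and wt arrays past an adjusted p of 0.05 in limma, the linear model fitted over all genes. The background was 0.0269% of the 18603 genes tested, or 5 genes, and adjusted p-values of the brake genes were 0.702 to 0.988. At an unadjusted p under 0.05 limma called 0 of 10, against 7.22% of all genes, and the Card9-/- and wt arrays overlapped for all 10 genes, where 5.22% of the 18595 genes with a value on every array had groups that did not overlap. Differences, Card9-/- minus wt, ran from -0.93 for Zc3h12a to 0.56 for Socs1. Of the 10 differences 6 were below 0, against 56.3% of all genes, and their median was -0.21 against -0.088 for all genes. After quantile normalization 4 were below 0 and their median was 0.20, where that of all genes was -0.011, so the sign of the median depends on the scaling. It also depends on single arrays. Without wt replicate 1 the differences ran from -1.10 to 0.094 and 7 of the 10 were below 0, without wt replicate 3 only 3 were below 0 (median 0.14), and without wt replicate 4 there were 5 below 0 (median 0.10). With array weights, which let limma count arrays unequally by their spread, 2 of the 10 were below 0 and the median was 0.46. In each of these settings 0 of 10 passed. In these bulk samples fewer cells of a type and less RNA per cell cannot be told apart.

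**Figure D1:**
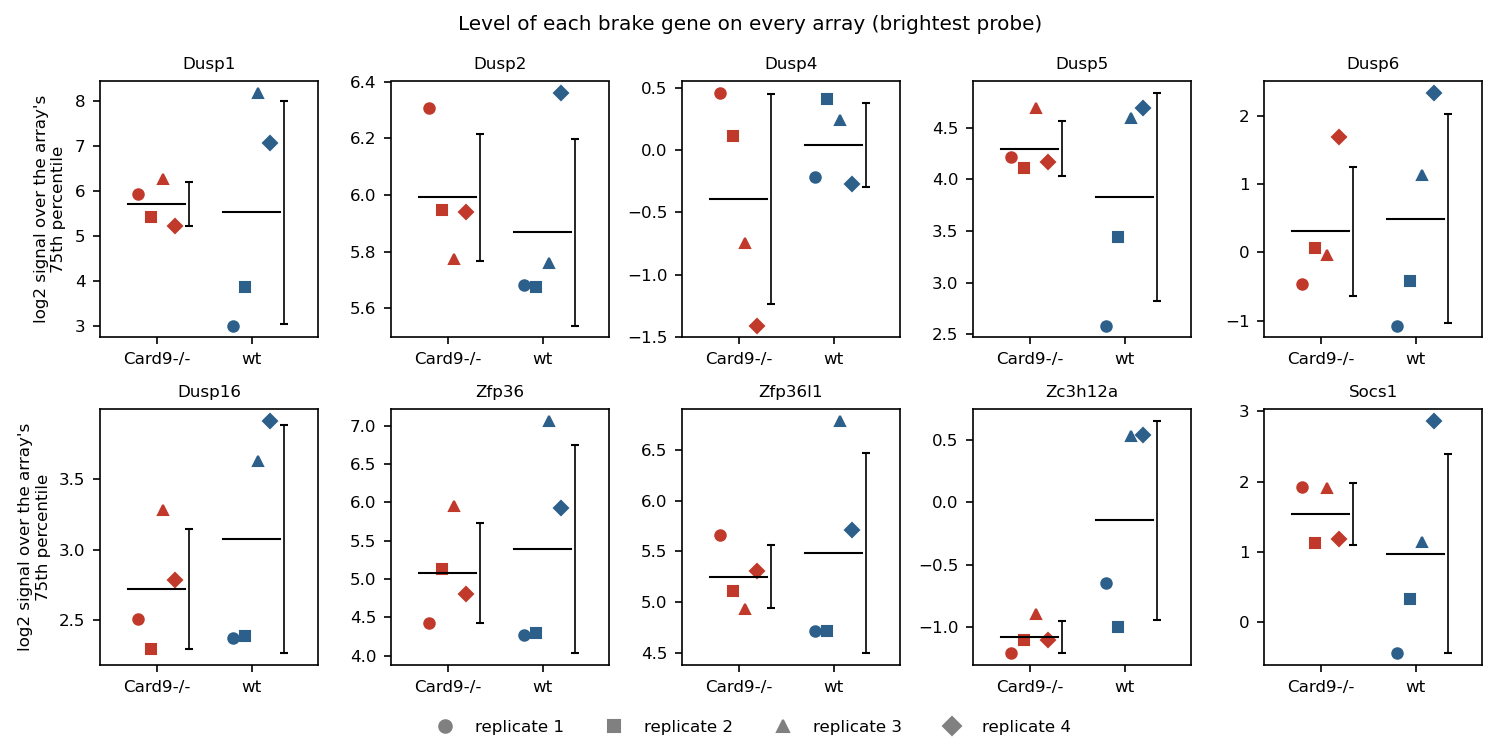
Level of each brake gene on every array, from the brightest probe, with Card9-/- left and wt right in each panel. Symbols are replicates, horizontal lines are means of 4 arrays and vertical bars are the SD. Axes differ between panels and do not start at 0. The wt arrays of Dusp1 spread from 3.02 to 8.18 around Card9-/- arrays at 5.23 to 6.28.

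Dusp1, also called MKP-1, acts mainly on p38 and JNK and is induced by Toll-like receptor signals and glucocorticoids. Its level was 5.95, 5.43, 6.28 and 5.23 in Card9-/- replicates 1 to 4, against 3.02, 3.88, 8.18 and 7.07 in wt replicates 1 to 4. All 4 Card9-/- arrays lay inside the gap between the lower pair of wt arrays, replicates 1 and 2, and the upper pair, replicates 3 and 4. The Card9-/- arrays spanned a 2.08-fold range and the wt arrays a 35.8-fold range, and the SD of the wt arrays, 2.48, was larger than that of 96.9% of genes. The mean was 5.72 ± 0.48 in Card9-/- and 5.54 ± 2.48 in wt arrays (SD, n = 4 each). The fold of Card9-/- over wt was 1.13 with a 95% interval of 0.221 to 5.84 (log2 difference 0.18, SE 1.05, limma adjusted p = 0.988). Without wt replicate 1 the difference was -0.66 and without wt replicate 3 it was 1.06, so a single array set its direction. With array weights it was 1.91 (limma adjusted p = 0.0839).

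Dusp2, also called PAC-1, is a nuclear phosphatase of immune cells. Its level was 6.31, 5.95, 5.77 and 5.94 in Card9-/- replicates 1 to 4, against 5.68, 5.67, 5.76 and 6.36 in wt replicates 1 to 4. It had the narrowest 8-array spread of the 10 genes, with wt replicate 4 as the highest array and the other 3 wt arrays below every Card9-/- array. Means were 5.99 ± 0.22 in Card9-/- and 5.87 ± 0.33 in wt arrays (SD, n = 4 each). The difference of 0.12 (SE 0.33, limma adjusted p = 0.966) had an interval of -0.62 to 0.87, which bounds the fold at 0.650 to 1.83. Without wt replicate 1 it was 0.061.

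Dusp5 and Dusp6 act mainly on ERK, the first in the nucleus and the second in the cytoplasm, and both are induced by ERK itself. Dusp5 was at 4.22, 4.11, 4.69 and 4.17 in Card9-/- replicates 1 to 4, against 2.58, 3.44, 4.60 and 4.69 in wt replicates 1 to 4. The 4 Card9-/- arrays lay within 0.58 of each other, while wt replicates 1 and 2 were below all of them. The difference was 0.47 (SE 0.51, limma adjusted p = 0.892), 0.052 without wt replicate 1 and 1.03 with array weights. Dusp6 was at -0.46, 0.06, -0.04 and 1.68 in Card9-/- replicates 1 to 4, against -1.07, -0.41, 1.14 and 2.33 in wt replicates 1 to 4. Replicate 4 was the highest array in each genotype, and the groups overlapped over most of their range. Its difference was -0.18 (SE 0.78, limma adjusted p = 0.983), and the 95% interval of -1.93 to 1.56 spans a fold of 0.263 to 2.95. Without wt replicate 1 it was -0.71.

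Dusp4, also called MKP-2, is a nuclear phosphatase of ERK, p38 and JNK. The brighter of its 2 probes read 0.46, 0.12, -0.75 and -1.41 in Card9-/- replicates 1 to 4, against -0.22, 0.41, 0.24 and -0.27 in wt replicates 1 to 4. It was the 1 gene of the 10 whose SD was larger in Card9-/- arrays, at 0.84 against 0.34 in wt arrays (n = 4 each), with Card9-/- replicates 3 and 4 below every wt array. The difference was -0.44 (SE 0.47, limma adjusted p = 0.890), and -0.52 without wt replicate 1.

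Dusp16, also called MKP-7, acts mainly on JNK. Its brightest probe was at 2.51, 2.30, 3.28 and 2.79 in Card9-/- replicates 1 to 4, against 2.37, 2.39, 3.63 and 3.91 in wt replicates 1 to 4. Card9-/- replicates 1 and 2 were level with wt replicates 1 and 2, and wt replicates 3 and 4 were the highest arrays. The difference was -0.36 (SE 0.47, limma adjusted p = 0.910), and -0.59 without wt replicate 1.

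Among the mRNA-decay proteins, Zfp36 was at 4.42, 5.13, 5.95 and 4.81 in Card9-/- replicates 1 to 4, against 4.27, 4.30, 7.06 and 5.93 in wt replicates 1 to 4. All 4 Card9-/- arrays lay inside the wt range, with wt replicates 1 and 2 lowest and wt replicate 3 highest of the 8 arrays. Means were 5.08 ± 0.65 in Card9-/- and 5.39 ± 1.36 in wt arrays (SD, n = 4 each), with a difference of -0.31 (SE 0.67, limma adjusted p = 0.956). Its direction was not stable: the difference was -0.68 without wt replicate 1, 0.25 without wt replicate 3 and 0.16 after quantile normalization.

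Zfp36l1, a relative of Zfp36 with the same zinc fingers of the CCCH type, was at 5.66, 5.11, 4.93 and 5.30 in Card9-/- replicates 1 to 4 with its brighter probe, against 4.71, 4.72, 6.78 and 5.71 in wt replicates 1 to 4. The Card9-/- arrays again filled the gap between wt replicates 1 and 2 and wt replicates 3 and 4. The difference was -0.23 (SE 0.51, limma adjusted p = 0.956), and it was -0.49 without wt replicate 1, 0.20 without wt replicate 3 and 0.25 after quantile normalization.

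Zc3h12a had the smallest limma p of the 10 genes. Its brighter probe, designed on the clone AK163109, was at -1.21, -1.11, -0.90 and -1.11 in Card9-/- replicates 1 to 4, against -0.65, -0.998, 0.53 and 0.53 in wt replicates 1 to 4. The Card9-/- arrays lay within 0.31 of each other, and their SD of 0.13 was larger than that of 1.11% of genes. Every Card9-/- array but replicate 3 was below all 4 wt arrays, and replicate 3 lay above wt replicate 2, so the groups overlapped by that 1 array. Means were -1.08 ± 0.13 in Card9-/- and -0.14 ± 0.80 in wt arrays (SD, n = 4 each), a fold of 0.523 with a 95% interval of 0.266 to 1.03. In limma the difference was -0.93 (SE 0.43, unadjusted p = 0.0585, adjusted p = 0.702), and the exact two-sided permutation p over 70 assignments of arrays was 0.0571. The difference was -1.22 to -0.71 when each array was left out in turn, with -1.10 without wt replicate 1, and it shrank to -0.23 with array weights (limma adjusted p = 0.617). Within the slide that holds both genotypes it was -0.96, which rests on 1 Card9-/- array (limma adjusted p = 0.760).

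Socs1 was at 1.93, 1.14, 1.91 and 1.18 in Card9-/- replicates 1 to 4, against -0.43, 0.33, 1.14 and 2.87 in wt replicates 1 to 4. The wt arrays covered a 9.83-fold range, with replicate 4 above and replicates 1 and 2 below all Card9-/- arrays, and the Card9-/- arrays covered a 1.73-fold range. Means were 1.54 ± 0.44 in Card9-/- and 0.97 ± 1.41 in wt arrays (SD, n = 4 each). The difference was 0.56 (SE 0.66, limma adjusted p = 0.898), and it was 0.094 without wt replicate 1, 1.19 without wt replicate 4 and 1.26 with array weights.

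**Figure D2:**
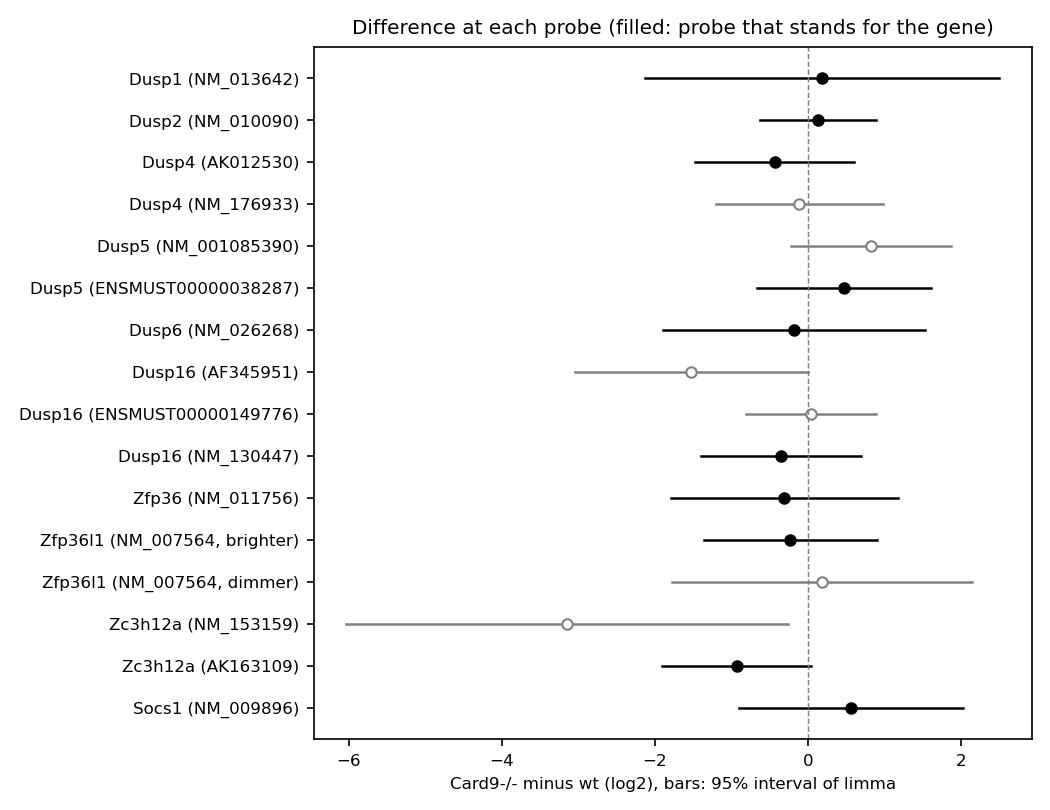
Difference between genotypes, Card9-/- minus wt on the log2 scale, at each of the 16 probes, with bars for the 95% interval of a limma fit over all kept probes. Filled points are the probes that stand for their genes. The widest bar is that of the Zc3h12a probe on NM_153159, from -6.03 to -0.27. This probe passed the filter on dim probes only through the wt arrays.

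More than 1 probe read Dusp4, Dusp5, Dusp16, Zfp36l1 and Zc3h12a, and probes of a gene did not always give the same order of arrays. Zc3h12a differed most between probes: the probe on its mRNA NM_153159, whose 30 bases are shown above, read -4.94, 0.16, -4.65 and 0.12 in Card9-/- replicates 1 to 4, against -0.51, -0.35, 2.00 and 2.14 in wt replicates 1 to 4. It was not well above background on Card9-/- replicates 1 and 3, which share a slide, and lay 7741 bases from the clone's probe. Over the whole array 400 probes were not well above background on exactly these 2 arrays, the most of any of the 28 pairs of arrays. The NM_153159 probe passed the filter on dim probes only through the 4 wt arrays, where it was higher. Such a selection favours a difference below 0, so the interval and p-values at this probe are descriptions only. At this probe the difference was -3.15 (SE 1.29, limma interval -6.03 to -0.27, exact two-sided permutation p = 0.171), and it was -1.69 with normexp background correction, which limits values near background. With this probe standing for the gene in the fit over all genes, the unadjusted limma p was 0.0387 and the adjusted p 0.653, so the call did not change. The 2 arrays with a signal well above background in the Card9-/- group, replicates 2 and 4, lay between the 2 pairs of wt arrays. On these 2 and on all 4 wt arrays this probe was brighter than the clone's probe. The choice of the clone's probe to stand for the gene therefore rested on Card9-/- replicates 1 and 3.

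The second probe of Dusp5, on NM_001085390, read -1.52, -0.27, 0.36 and -1.24 in Card9-/- replicates 1 to 4, against -1.65, -1.38, -1.78 and -1.14 in wt replicates 1 to 4. Here wt replicate 3 was the lowest array, whereas the brighter probe had it among the 3 highest, so the order of the wt arrays was not shared. Its difference was 0.82 (SE 0.47, exact two-sided permutation p = 0.143). The second probe of Dusp4, on NM_176933, read -0.41, -1.70, -1.11 and -2.04 in Card9-/- replicates 1 to 4, against -1.55, -1.001, -0.35 and -1.90 in wt replicates 1 to 4. It gave a difference of -0.11 (SE 0.49), with the same lowest array as the brighter probe, Card9-/- replicate 4.

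The Dusp16 probe on AF345951 read -4.21, -2.79, -2.68 and -1.80 in Card9-/- replicates 1 to 4, against -2.73, -1.96, -0.38 and -0.31 in wt replicates 1 to 4. It was dim, and Card9-/- replicate 1 was not well above background there. The difference was -1.53 (SE 0.68, exact two-sided permutation p = 0.171), or -0.75 with normexp background correction. The third Dusp16 probe, on ENSMUST00000149776, gave 0.04 (SE 0.38), with levels of -0.73 to -0.32 in Card9-/- and -0.97 to 0.22 in wt arrays. The dimmer of the 2 Zfp36l1 probes, both on NM_007564, read 1.499, -0.34, -0.67 and 3.74 in Card9-/- replicates 1 to 4, against 0.65, 0.40, 1.66 and 0.79 in wt replicates 1 to 4. Its 21.3-fold range among Card9-/- arrays, set by replicate 4, was not seen at the brighter probe, where these arrays spanned 1.65-fold.

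**Figure D3:**
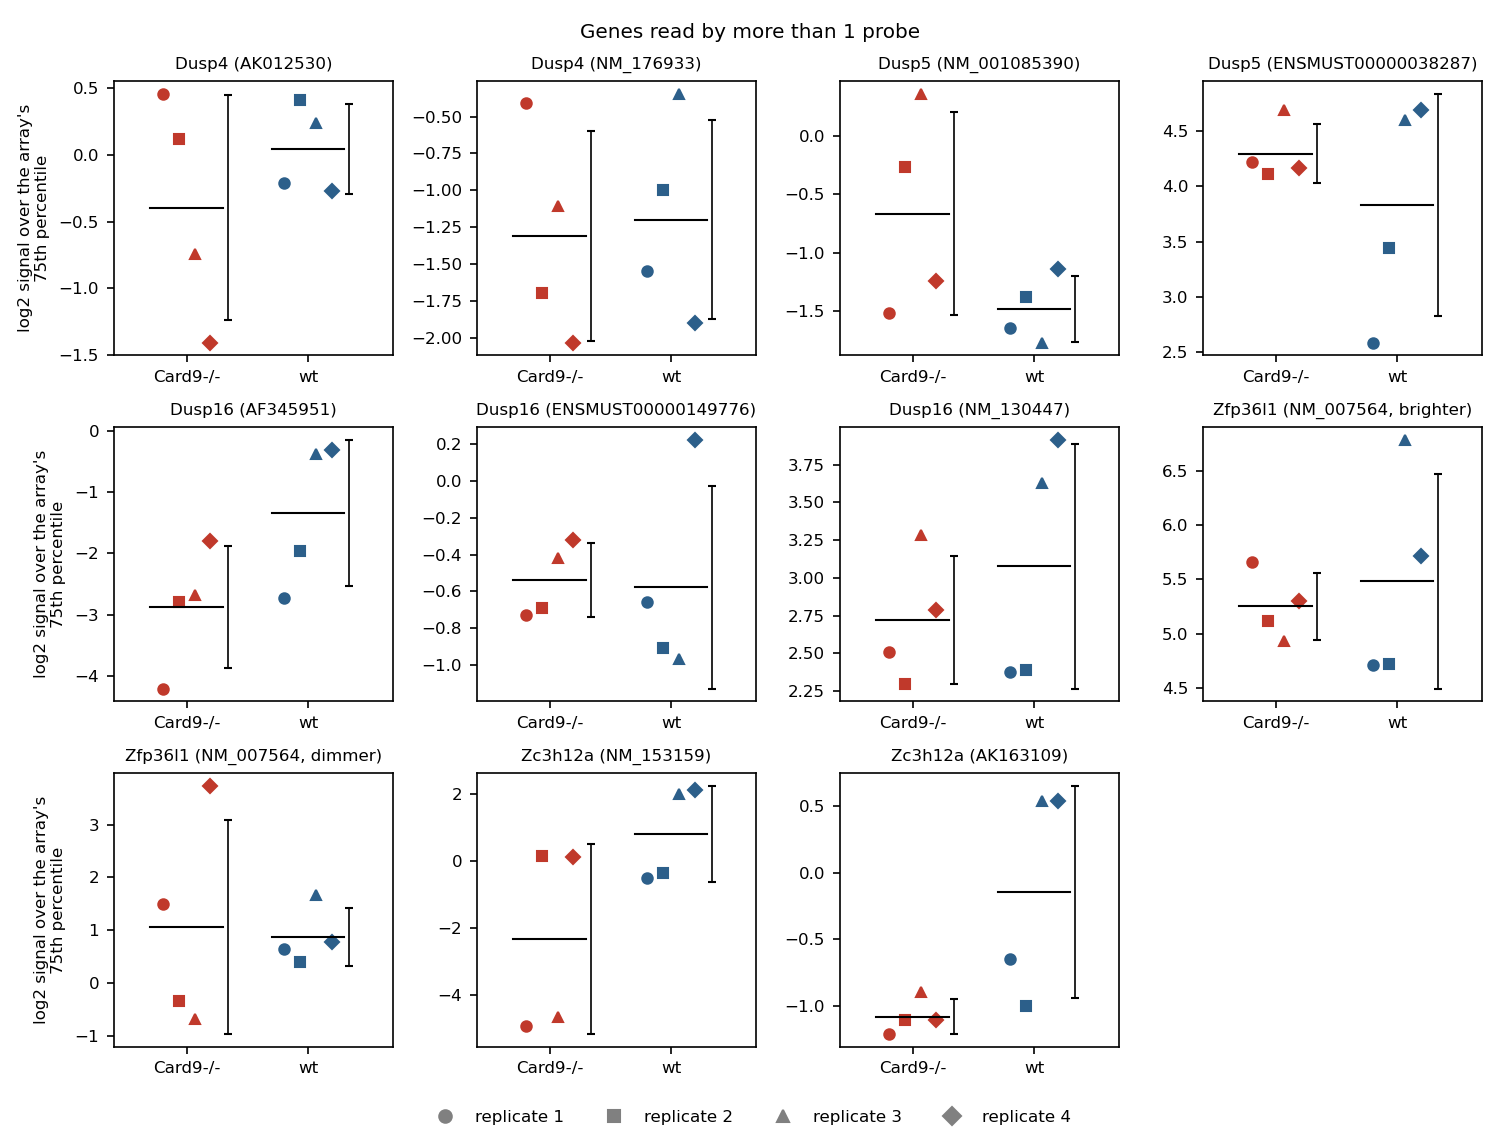
Levels at each probe of the 5 genes read by more than 1 probe, Card9-/- left and wt right in each panel, with symbols for replicates, lines for means of 4 arrays and bars for the SD. Panels have their own axes, which do not start at 0. At the NM_153159 probe of Zc3h12a, Card9-/- replicates 1 and 3 lie at -4.94 and -4.65, apart from all other arrays.

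The wt arrays differed among themselves in many of the brake genes. The mean level of the 10 genes was 2.98, 2.82, 3.11 and 2.86 in Card9-/- replicates 1 to 4, against 2.03, 2.37, 3.91 and 3.91 in wt replicates 1 to 4. The 4 Card9-/- means lay close together in the gap between the 2 pairs of wt arrays. The following counts were chosen after the values were seen and are descriptions with no test. In 4 genes (Dusp1, Dusp16, Zfp36l1 and Zc3h12a) wt replicates 3 and 4 were the highest of the 8 arrays, as in 14.5% of all genes. In 6 genes (Dusp1, Dusp2, Dusp5, Zfp36, Zfp36l1 and Socs1) wt replicates 1 and 2 were the lowest, as in 9.91% of all genes. The SD was larger in wt than in Card9-/- arrays for 9 of the 10, as for 53.9% of all genes, and for 7 of the 10 every Card9-/- array lay inside the wt range, as for 25.2% of all genes. The median SD over all genes was 0.59 in Card9-/- and 0.68 in wt arrays.

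Markers of macrophages moved with the same arrays. The mean level of 5 measured macrophage markers (Adgre1, Cd68, Csf1r, Itgam and Lyz2) was 3.01, 3.38, 3.66 and 3.94 in Card9-/- replicates 1 to 4, against 2.52, 2.32, 7.64 and 5.92 in wt replicates 1 to 4. Adgre1, a surface protein of mature macrophages, was at 1.62 to 2.42 in Card9-/- arrays and 0.35 to 7.72 in wt arrays. It was well above background on all 8, which does not show that the samples were mostly macrophages. The mean level of 5 B cell markers was 4.72, 4.44, 4.998 and 4.08 in Card9-/- replicates 1 to 4, against 4.58, 4.35, 3.48 and 4.38 in wt replicates 1 to 4. That was above the mean of the macrophage markers on every array except wt replicates 3 and 4. Summed levels, in multiples of the array's 75th percentile, were 70.4 to 219 in Card9-/- and 43.1 to 1366 in wt arrays for macrophage markers, and 12.2 to 21.4 and 4.98 to 411 for 5 markers of resident peritoneal macrophages. By their means the brake genes and both marker lists were all highest on wt replicates 3 and 4. The part of macrophage content in the brake genes' values was not tested.

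Markers of other cells differed as well, and their part in the brake genes' values was not tested either. Of 7 T cell markers 7 had a difference above 0, with summed levels of 29.7 to 74.7 in Card9-/- and 15.2 to 24.3 in wt arrays, and of 5 natural killer cell markers 5, with 9.56 to 46.3 and 2.56 to 5.69. The 5 red cell markers summed to 613 to 4723 in Card9-/- and 162 to 1420 in wt arrays, and the 6 neutrophil markers to 92.0 to 805 and 142 to 553. The 5 B cell markers summed to 242 to 349 in Card9-/- and 166 to 414 in wt arrays. The 4 dendritic cell markers summed to 1.40 to 6.33 and 1.08 to 12.4, and the 3 mesothelial markers to 0.309 to 0.725 and 0.198 to 1.98. None of these markers passed an adjusted p of 0.05 in limma. At an unadjusted limma p under 0.05, 6 of 7 T cell and 4 of 5 natural killer cell markers were higher in Card9-/- arrays. So were 1 red cell and 1 dendritic cell marker, against 7.22% of all genes in either direction. The T cell marker Cd8a was well above background on 4 Card9-/- and 2 wt arrays, so it passed the filter only through the Card9-/- arrays. Such a selection favours a difference above 0. The difference of Cd8a was 3.22, or 1.83 with normexp background correction, and is a description only.

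**Figure D4:**
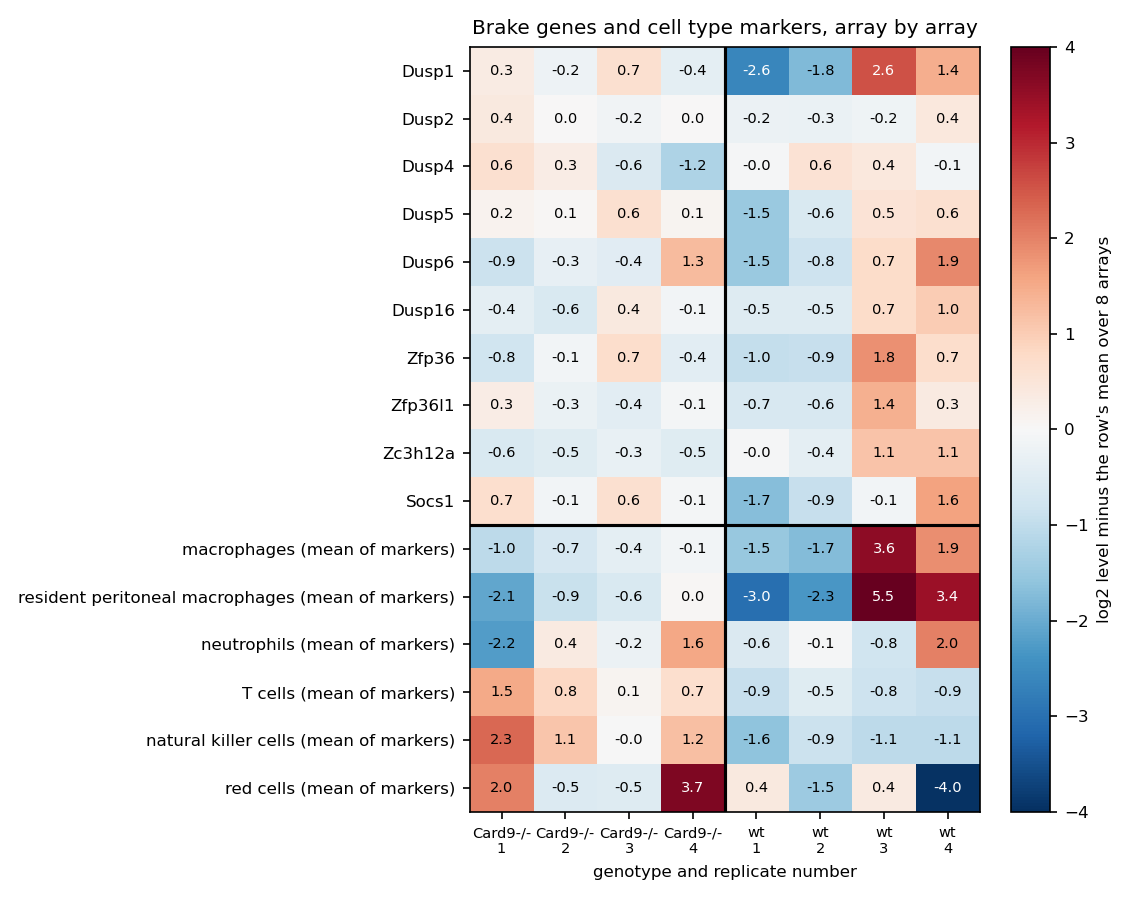
Level of each brake gene, and mean level of each marker list, on the 8 arrays as the difference from the row's own mean over all arrays (log2, colour up to 4 either way and printed value), with Card9-/- arrays left and wt arrays right. Wt replicates 1 and 2 are below their row mean for Dusp1 and the macrophage markers, and wt replicates 3 and 4 are above it.

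For each brake gene the 1 other gene of 18585 compared with the closest pattern over the 8 arrays was found, as the smallest root mean square difference after centring each gene on its mean. For Dusp1 it was Dhrs7, at 0.21 log2 units where Dusp1 itself deviated by 1.55. For Zfp36 it was Rsu1 at 0.19, for Dusp5 it was Trib1 at 0.19 and for Zfp36l1 it was B4gat1 at 0.12. Socs1 was closest to Oas1c at 0.27, Zc3h12a to Apol9a at 0.17 and Dusp6 to Calcrl at 0.35. Dusp2 was closest to Rnf145 at 0.092, Dusp16 to Atp6v1e1 at 0.14 and Dusp4 to Nosip at 0.15. These are the best of many comparisons over 8 arrays and carry no test.

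The related genes are given by list, none of which had a gene past an adjusted p of 0.05 in limma. Genes are named by the smallest unadjusted limma p and did not pass the threshold. Counts below 0 stand beside 56.3% of all genes tested, whose median was -0.088, and no list was tested as a set. Of 13 genes measured in the list of other dual-specificity phosphatases, which also holds the tyrosine phosphatases Ptpn5 and Ptpn7, 9 had a difference below 0. Their median was -0.060. Dusp22 was at -0.87 (SE 0.49), Dusp11 at -0.33 (SE 0.32) and Dusp19 at 0.46 (SE 0.47). Of 30 genes of the MAP kinase cascade, which the phosphatases act on, 19 were below 0 with a median of -0.14. Mapkapk2, a kinase that p38 activates and that phosphorylates Zfp36, differed by -1.04 (SE 0.60, limma adjusted p = 0.776), Map2k3 by -0.61 (SE 0.35) and Map2k6 by -0.98 (SE 0.61). The probe of Map2k6 was well above background on 2 Card9-/- and 4 wt arrays, so it passed the filter only through the wt arrays. That selection favours a difference below 0, and with normexp background correction the difference of Map2k6 was -0.019. Of 18 genes induced by ERK 9 were below 0 and the median was -0.011. Spry2, an inhibitor of ERK signalling, differed by 2.03 (SE 0.63, limma adjusted p = 0.554), Etv4 by 1.49 (SE 0.63) and Egr1 by 1.43 (SE 0.67).

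Of 14 other regulators of mRNA decay 9 were below 0, with a median of -0.24. Khsrp, which binds AU-rich elements, was at 2.60 to 3.15 in Card9-/- and 3.47 to 4.22 in wt arrays, so the groups did not overlap, and its difference was -0.90 (SE 0.34, limma adjusted p = 0.614). Zfp36l2, the closest relative of Zfp36l1, was at 5.49 to 6.45 in Card9-/- and 4.84 to 5.32 in wt arrays, also without overlap, with a difference of 0.89 (SE 0.34, limma adjusted p = 0.618). N4bp1, an endonuclease related to Zc3h12a, differed by -1.11 (SE 0.46), at 0.90 to 1.87 in Card9-/- and 1.97 to 3.72 in wt arrays, again without overlap. Groups did not overlap in 5.22% of the 18595 genes with a value on every array, and the genes named here were picked by a small p. Named genes of other lists, such as Pim1, Ifng and Tnip1, had groups without overlap too. Of 35 genes of the deadenylation and decay machinery 20 were below 0, with a median of -0.089. Cnot8, a deadenylase, differed by -1.05 (SE 0.44, limma adjusted p = 0.654), Dcp1a by -0.62 (SE 0.38) and Edc3 by -0.63 (SE 0.45). Edc3 was dim, and with normexp background correction its difference was -0.046.

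Of 25 mRNAs known as targets of Zfp36 or Zc3h12a 15 were below 0 and the median was -0.26. Il12b, a subunit of interleukin 12, differed by 3.20 (SE 0.97, limma adjusted p = 0.553), at -1.89 to 3.15 in Card9-/- and -3.85 to -1.69 in wt arrays. Pim1 differed by -0.79 (SE 0.34). Tnf, the classic target of Zfp36, was at 4.16, 3.22, 3.84 and 4.57 in Card9-/- replicates 1 to 4, against 2.39, 1.84, 4.10 and 5.204 in wt replicates 1 to 4. Its Card9-/- arrays lay between wt replicates 1 and 2 and the highest wt array, and its difference was 0.56 (SE 0.72, limma adjusted p = 0.905). Il6, the classic target of Zc3h12a, was at 2.01 to 3.65 in Card9-/- and -0.51 to 6.76 in wt arrays (difference 0.19, SE 1.43). Ptgs2 differed by 1.18 (SE 0.94) and Cxcl2 by -0.34 (SE 0.80).

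Of 17 other SOCS genes and inhibitors of JAK-STAT signalling 14 were below 0, with a median of -0.25, and Pias4 differed by -0.43 (SE 0.30), Socs6 by -0.51 (SE 0.42) and Ptpn1 by -0.43 (SE 0.38). Of 24 genes of JAK-STAT and interferon gamma signalling, the pathway that Socs1 inhibits, 12 were below 0 with a median of -0.005. Ifng was at 0.03 to 1.16 in Card9-/- and -2.70 to -0.30 in wt arrays, a difference of 2.15 (SE 0.59, limma adjusted p = 0.534), beside the higher T cell and natural killer cell markers given above. Stat4 differed by 1.11 (SE 0.55) and Stat5a by -0.62 (SE 0.33). Of 16 feedback inhibitors of NF-kB 12 were below 0, with a median of -0.53, and Tnip1, a partner of the inhibitor A20, differed by -1.63 (SE 0.54, limma adjusted p = 0.567), Nfkbib by -1.16 (SE 0.40) and Nfkbie by -1.04 (SE 0.39). Of 10 genes induced by glucocorticoids, as Dusp1 is, 8 were below 0 with a median of -0.39. Mt2 differed by -0.98 (SE 0.59), Sult1a1 by -1.97 (SE 1.599) and Cebpd by -0.84 (SE 0.92).

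**Figure D5:**
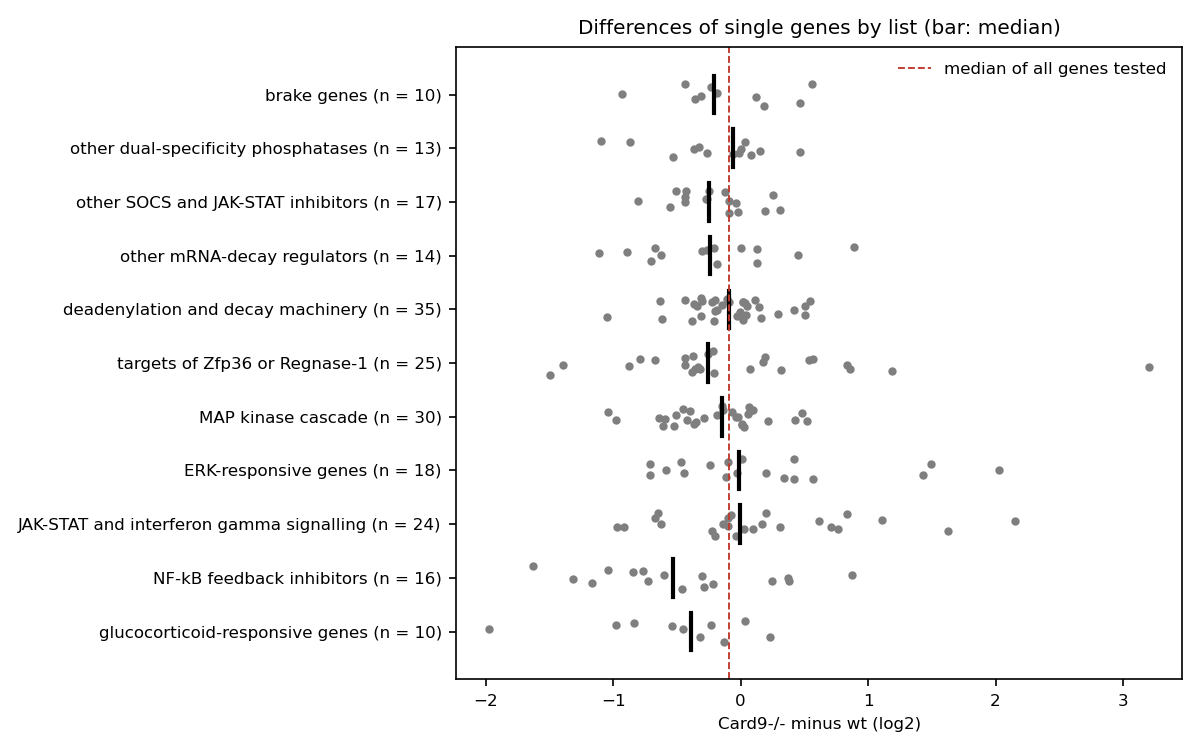
Difference of each measured gene, Card9-/- minus wt on the log2 scale, by list, with a bar at each list's median and a dashed line at the median of all genes tested, -0.088. Points are scattered vertically only to separate them. The brake genes have a median of -0.21 and lie between -0.93 and 0.56.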

How the data were processed

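RNA of 8 samples, 4 Card9-/- and 4 wt by the labels, was hybridised to one-colour arrays (0.2 µg RNA, Cy3). Agilent Feature Extraction 10.7.1.1 made the deposited intensity values from scans, per the file headers and the submitters' processing notes, by subtracting background and detrending within each array, and did not scale between arrays. The authors' deposited value table holds log2 values (56745 rows) whose further making is not stated. Its rows were out of step with their identifiers from row 49671 on and its columns matched the scanner file of their own genotype in 8 of 8 cases but of their own replicate in 2 of 8, so it served as an alternative only, with 49660 probes.

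From the scanner files the log2 processed signal minus the 75th percentile of non-control spots was computed, outlier spots were left out, and a probe was kept if 3 or more of the 4 arrays of a genotype were well above background (28166 probes). The brightest kept probe by its mean over all arrays stood for a gene, which gave 18603 genes. The genotype comparison used limma 3.58.1 and R 4.3.3 (lmFit and eBayes, genotype only, two-sided, Benjamini-Hochberg over all genes, threshold 0.05). Single probes were compared with exact two-sided permutation tests over all 70 assignments. The fit was tested on simulated data. Other computing used Python 3.11.15 with pandas 2.3.3, numpy 2.4.6 and matplotlib 3.10.9. Probe coordinates are those of the files (mm9), and promoters are from RefSeq (GRCm38.p6).

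The brake genes and the lists were chosen with earlier results of these data known. All brake genes were named, and in each list the 3 genes with the smallest p, with Tnf, Il6, Cxcl2 and Ptgs2 added and 1 gene of like pattern per brake gene. Replicate numbers did not pair the samples: the correlations of deviations from the group means between same-numbered arrays were -0.13, 0.25, -0.12 and -0.28. Alternatives changed background correction, scaling, the filter, the probe of a gene, the source of values, the slide, the replicate block, array weights and single arrays. Using the probe of a RefSeq mRNA for each gene was chosen after seeing the data.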

Additional observations from a re-analysis of the deposited data

Results flagged for a closer look

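In 32 groups examined, each the 4 arrays of one genotype at one of the 16 probes, 1 array stood far from the other 3. It was wt replicate 4 at the probe of Dusp2, at 6.36 against 5.67 to 5.76 on the other wt arrays, while the Card9-/- arrays lay at 5.77 to 6.31. Chance alone gives such a gap in about 1 group in 20. Without wt replicate 4 the difference of Dusp2 was 0.29, against 0.12 with it.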

How the results depend on the processing

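The number of brake genes past an adjusted p of 0.05 was 0 under all 20 alternatives that were run. The number of all genes past it was 5 in the reported fit, 0 with slide as a block, 0 within slide 1, where a lone Card9-/- array was assumed to vary like the others, 3 with the replicate block and 539 with array weights (292 higher, 247 lower). Between 5 and 6 genes were called when each array was left out in turn, and 5 to 7 under the other alternatives. Of 198 differences recomputed for the brake genes, 176 kept their direction and 22 turned, and the lowest adjusted p was 0.0839 (Dusp1 with array weights, limma). Those of Dusp4, Dusp5, Zc3h12a and Socs1 kept their direction in every alternative run. With slide as a block, and likewise within slide 1, Dusp1 was at -0.31 and Dusp6 at 1.19. Averaging wt replicates 1 and 2 gave -0.51 for Dusp1, and median scaling gave -0.053 for Dusp2. With array weights 8 of 10 brake genes were above 0 (median 0.46): Dusp1 was at 1.91, Socs1 at 1.26, Dusp5 at 1.03 and Zc3h12a at -0.23, and with a turned sign Dusp6 was at 0.56, Dusp16 at 0.19, Zfp36 at 0.86 and Zfp36l1 at 0.37. Quantile normalization gave 0.16 for Zfp36 and 0.25 for Zfp36l1, while 0.12 and 0.20 came from the values in the authors' table, which gave no value for Dusp5 and Dusp16. Leaving out each array in turn gave -0.66 to 1.06 for Dusp1, -0.71 to 0.43 for Dusp6, -0.68 to 0.25 for Zfp36 and -0.49 to 0.20 for Zfp36l1. Dusp1 turned without wt replicate 1 (-0.66), without wt replicate 2 (-0.37) and without Card9-/- replicate 3 (-0.0040). Without wt replicate 1 the differences of 7 of 10 brake genes were below 0 and their median was -0.56, against 3 of 10 and 0.14 without wt replicate 3. The counts by pattern, marker and list were not recomputed without single arrays. The cause of these shifts was not tested. The median of all genes was -0.088 in the reported fit, -0.26 with median scaling, where that of the brake genes was -0.38, and 0.031 with normexp, where it was -0.29. The replicate block left every difference of the brake genes as it was and called none of them. Probes near background, such as those of Zc3h12a on NM_153159 and Dusp16 on AF345951, have differences that depend on the background correction.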
